A study of Mus musculus with 14 samples.

Results

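Mouse corneal stromal cells grown in low-serum culture, labelled corneal keratocytes, were compared with freshly isolated adult mouse corneal stroma on the Affymetrix MG_U74Av2 array, a 1-colour array of probe sets designed from transcript sequences. The 3 adult arrays held stroma of CD-1 mice aged 7 to 8 weeks, and the 3 keratocyte arrays held primary stromal cells of CD-1 mice of the same age kept in DMEM with 1% platelet-poor horse serum. The other arrays of the series, used here only for levels set side by side, held stroma of postnatal day 10 pups (2 arrays), and stromal cells of CD-1 mice aged 7 to 8 weeks cultured in 10% serum as fibroblasts (3 arrays) or in 10% serum with 10 ng/ml TGF-beta1 as myofibroblasts (3 arrays). The labels do not say whether the replicates came from separate mice or cultures or from pooled animals, so p-values measure only the spread between these arrays. A probe set was a member where its mean signal was 50 or more in either group. This held for 10087 of the 12422 probe sets that are not array controls, which named 7284 genes with a single symbol. Each gene was read from 1 probe set, that of the highest mean over the 14 arrays, and 1388 genes had more than 1. Of the members, 8605 probe sets passed in both groups, 620 through the adult mean only and 862 through the keratocyte mean only, so the last 2 sets had to differ in level.

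Keratocytes are the mesenchymal cells of the corneal stroma. In the quiet adult cornea they are flat, rarely divide, maintain a transparent matrix of thin collagen fibrils spaced by keratan sulphate proteoglycans, and hold large amounts of soluble enzymes called corneal crystallins. After wounding or on serum they turn into fibroblasts that divide and move, and under TGF-beta into contractile myofibroblasts. Low-serum culture is used to keep isolated cells near the resting state.

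Differences are given as keratocyte minus adult on log2(signal + 16), with the standard error, from a limma fit over all 14 arrays. Adjusted p-values are Benjamini-Hochberg values over the 10087 probe sets, and a gene is said to have risen or fallen where its adjusted p was below 0.05. Values per array are MAS5 signals in the order of replicates 1, 2 and 3, and mean signals carry the SD over n = 3. Signals of different probe sets are not on a common scale of transcript number. A background limit of 137.7 was set at the 95th percentile of the signals of 19 control probe sets. These were for bacterial and yeast transcripts that were not added to these samples. A called gene was classed as switched on where every adult array lay below this limit and every keratocyte array above it, and as switched off for the reverse. For such genes the ratio is given as a lower bound, the mean of the brighter group over the limit. A gene was classed as kept where all 6 arrays exceeded the limit and the 95% confidence interval of its log2 difference lay within 1 of 0, that is within 2-fold.

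The array called keratocyte replicate 2 stood apart within its group. Its summed signal over 8 keratocyte markers was 8326, against 18016 in replicate 1 and 14443 in replicate 3, and all 3 adult arrays lay between 17098 and 18273. Aldh3a1 (6771 ± 631) and Tkt (5006 ± 188) were the largest parts of the adult sum. Both are also abundant in corneal epithelium, so the sum is not a measure of keratocyte content. The adult arrays also carried transcripts of neighbouring tissues. Over 8 corneal epithelial markers their summed signal was 16428 to 18232, against 499 to 657 in keratocyte culture, where 6 of the 8 lay below the limit on every array and 1 was listed at the floor of 1. Over 3 lens markers it was 4722 to 7443 against 145 to 171, and over 2 retinal markers 536 to 2854 against 42.4 to 52.3, with all 5 of these below the limit on every keratocyte array. Over 7 macrophage markers the order was the opposite, 605 to 824 in adult stroma and 2103 to 2720 in culture. Lyz2 carried most of that rise (4.85 ± 6.67 to 1129.9 ± 262), with Cd68, Tyrobp and C1qa also higher, while C1qb (143 ± 76.2 and 75.8 ± 11.4), Csf1r (236 ± 35.5 and 212 ± 26.3) and Ptprc (145 ± 23.8 and 160.3 ± 37.6) did not pass the test. C1qb had 2 probe sets of which 1 rose, and their median difference was 0.85 (limma adjusted p = 0.05). The 4 myofibroblast markers summed to 1071 to 2047 in adult stroma and 6958 to 8146 in keratocyte culture, where all 4 exceeded the limit. Of the 8 keratocyte markers 5 exceeded it in keratocyte culture and 7 in adult stroma. Acta2 and Tagln carried the rise of the myofibroblast sum. Cnn1, the only 1 of the 4 above the limit in adult stroma, fell, from 1302 ± 476 to 723 ± 82.7, a call lost in 7 of 21 alternative settings. The name keratocyte is therefore that of the labels and not a measured state. The adult arrays are titled adult cornea and carried epithelial, lens and retinal transcripts, so the name adult stroma does not state purity. In these bulk samples fewer cells of a type and less RNA per cell cannot be told apart. The part of the neighbouring tissues in the genes that fell, or in those that rose, was not tested. The ratio of 3′ to 5′ Gapdh control signal, a sign of RNA integrity, was 2.12 in adult replicate 1, 0.908 and 1.04 in the other adult arrays and 0.843 to 0.852 in keratocyte culture. For beta-actin the ratio was 4.05, 1.49 and 1.77 in adult replicates 1, 2 and 3 and 1.06 to 1.19 in keratocyte culture. Both ratios were higher on every adult array, so RNA integrity cannot be told apart from the difference between the groups. Pairs of arrays within a group correlated, across probe sets on the log2 scale, at 0.883 to 0.932 in adult stroma and 0.954 to 0.982 in keratocyte culture.

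**Figure D1:**
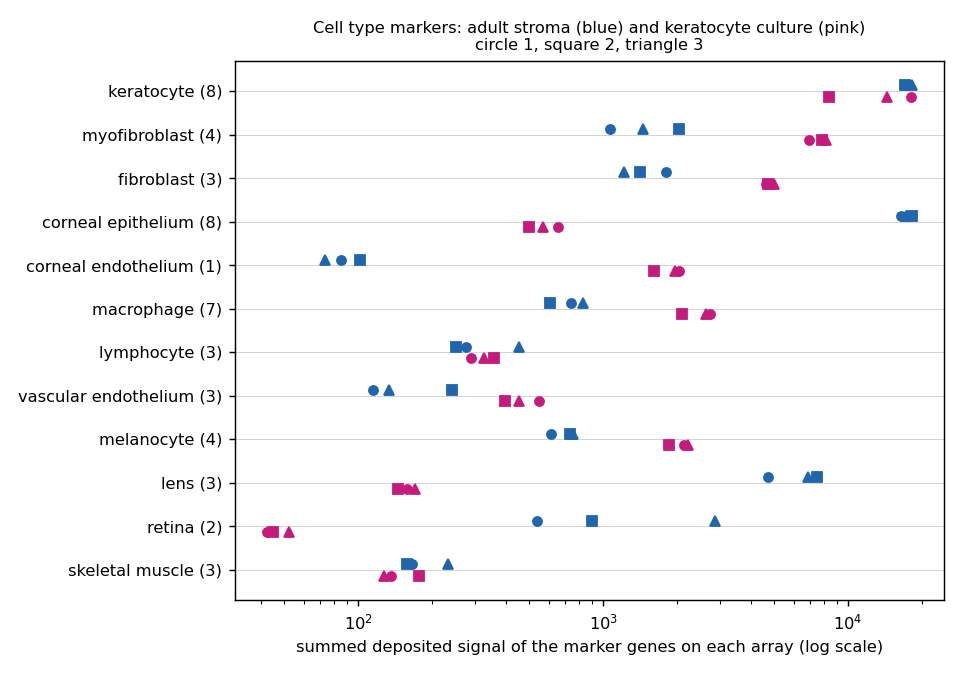
Summed MAS5 signal (log axis) of the markers of 12 cell types on each of the 3 adult (blue) and 3 keratocyte (pink) arrays. Epithelial, lens and retinal sums were lower on every keratocyte array, and myofibroblast and macrophage sums were higher on every keratocyte array.

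Of the 10087 probe sets, 2235 (22.2%) rose in keratocyte culture and 952 (9.44%) fell. By gene, 1633 of 7284 (22.4%) rose and 679 (9.32%) fell. The arrays of the groups did not overlap in 3226 of all 7284 genes and in 2253 of the 2312 called ones. Calls and overlap rest on the same arrays, so the overlap is no separate support. Mean signals of the spike-in control probe sets were 2182 to 2750 on adult arrays and 1026 to 1479 on keratocyte arrays. Probe sets at the floor of 1 numbered 176 to 359 on adult arrays and 99 to 126 on keratocyte arrays. Whether these differences had a part in the rises or the classes was not tested. The excess of rises depended on scaling. As deposited, rises made up 70.1% of called probe sets and the median log2 difference was 0.12, whereas after quantile normalization 1858 rose and 1637 fell (53.2% rises, median -0.05) and after centring each array on its median 1760 rose and 1598 fell (52.4%, median -0.06). A total of 399 genes (5.48%) were switched on, 186 (2.55%) were switched off and 2140 (29.4%) were kept, and the remaining 4559 fell in none of these classes. Among the 3135 genes that exceeded the limit on all 6 arrays, 68.3% were kept. Without keratocyte replicate 2, 1675 genes rose, 539 fell, 513 were switched on, 180 were switched off and 2011 were kept. In 25 genes probe sets were called in opposite directions. Counts of list members are to be read against the shares of all genes, 22.4% higher, 9.32% lower and 29.4% kept. For lists of bright genes the kept share is to be read against the 68.3% as well.

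**Figure D2:**
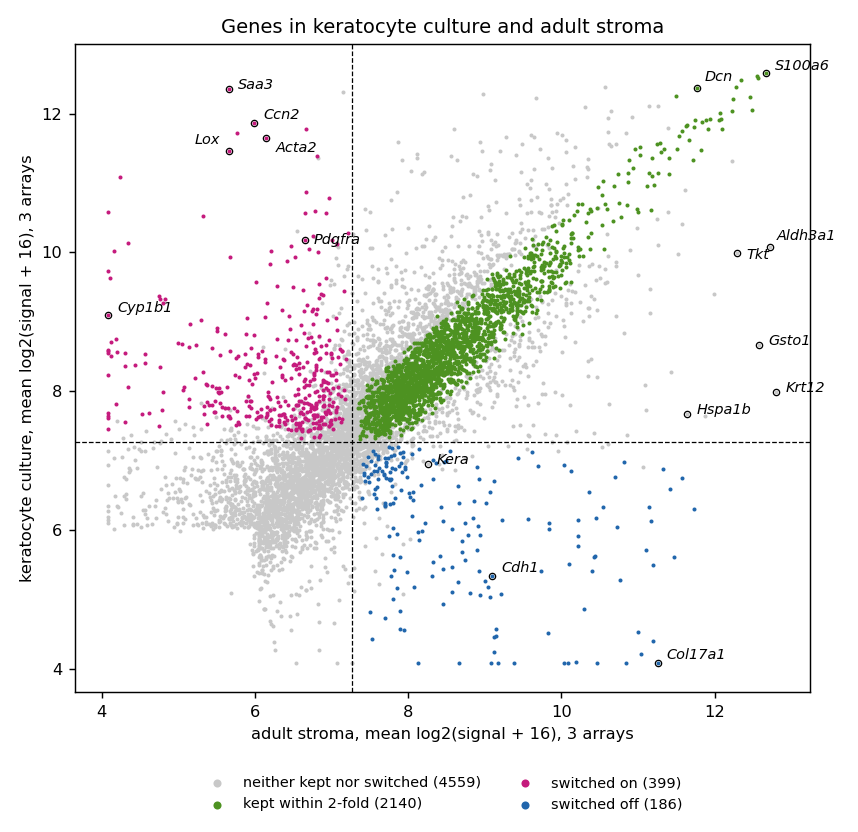
Mean log2(signal + 16) of 7284 genes in adult stroma (x axis) and keratocyte culture (y axis), each over 3 arrays, coloured by class, with dashed lines at the background limit. The 2140 kept genes lie along the diagonal, the 399 switched-on genes in the upper left and the 186 switched-off genes in the lower right.

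Keratocyte culture kept most ribosomal and respiratory chain genes within 2-fold of adult stroma. Of 214 genes with a mean adult signal of 1000 or more and all arrays above the limit, 113 were kept. The 15 kept genes of highest adult signal were S100a6, Tpt1, Rpl41, Tmsb4x, Rps24, Eef1a1, Rplp0, Actg1, Anxa2, Rps28, Gm15772, Rps10, Rps4x, Rps18 and Rpl7, most of them ribosomal proteins or parts of translation. S100a6, a small calcium-binding protein, read 6225, 6315 and 6957 in adult stroma and 5886, 6185 and 6223 in culture, a log2 difference of -0.09 ± 0.09 (limma adjusted p = 0.5). Actg1, the non-muscle gamma actin, read 4672, 4487 and 5289 in adult stroma and 4535, 4721 and 4918 in culture, a difference of -0.02 ± 0.14. The arrays of the groups overlapped for Actg1, and for S100a6 the keratocyte arrays lay just below the adult ones. Tmsb4x, which binds actin monomers, was kept within 2-fold and also fell, by 0.45 ± 0.10 on the log2 scale. Near-identical copies and pseudogenes of ribosomal and Tmsb4x transcripts make single members of these families uncertain.

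Among 27 cytosolic ribosomal proteins that passed the filter, 21 were kept, 2 rose and 1 fell, with a median log2 difference of 0.04 against 0.14 for all genes. The mitochondrial respiratory chain was much the same, with 29 of 43 genes kept, 6 higher and 1 lower and a median of 0.04. These medians fell below 0 after quantile normalization or centring. Atp5l, a subunit of ATP synthase, had mean signals of 1543 ± 274 and 1581 ± 236, with a difference of 0.04 ± 0.16. Cyc1, the cytochrome c1 of complex III, was an exception and rose from 1003, 951 and 1544 to 2527, 3194 and 3033, without overlap, by 1.34 ± 0.20 (limma adjusted p = 0.00017). Of 26 genes of class I presentation and the proteasome, 10 were kept, 4 rose and 6 fell. The kept members included the core subunits Psmb4 (0.14 ± 0.18), Psma2 (0.20 ± 0.20) and Psmb1 (-0.14 ± 0.20), which are general parts of the proteasome. Rpl7 had a second probe set, and by the median of both its difference was 0.85 and passed the test (limma adjusted p = 0.014).

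The connexin Gja1, which forms gap junctions between keratocytes and also between epithelial cells, was kept at 2524 ± 342 and 2790.5 ± 290.4, with a log2 difference of 0.15 ± 0.21. The mesenchymal transcription factors Twist2 (293 ± 3.09 and 359 ± 40.9) and Snai2 (391 ± 64.8 and 325 ± 27.8) were kept as well. Of 18 integrins and matrix receptors 6 were kept, 5 rose and 3 fell, near the shares of all genes (29.4% kept, 22.4% higher). Itga3, a laminin receptor subunit, was kept at a difference of 0.16 ± 0.22, although the median of its probe sets gave -0.53 (limma adjusted p = 0.044). In contrast, Itgb1, the common beta subunit, rose from 1065, 937 and 717 to 3023, 2167 and 2721 (1.53 ± 0.18, limma adjusted p = 1.2e-05). Itga5, which pairs with it as the fibronectin receptor, was switched on, at 174, 177 and 204 against 29.0, 39.6 and 34.4. Itgb4, the hemidesmosome integrin of epithelium, was switched off, at the floor on each keratocyte array. Immediate early genes, which respond quickly to stimuli, had 8 of 30 members kept, 13 higher and 1 lower, against 22.4% of all genes higher. The kept ones included Jund (1872 ± 222 and 2056 ± 2.43) and Jun (670.3 ± 51.2 and 566 ± 156), and Egr1 rose from 149 ± 35.1 to 793 ± 108 (2.31 ± 0.31).

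**Figure D3:**
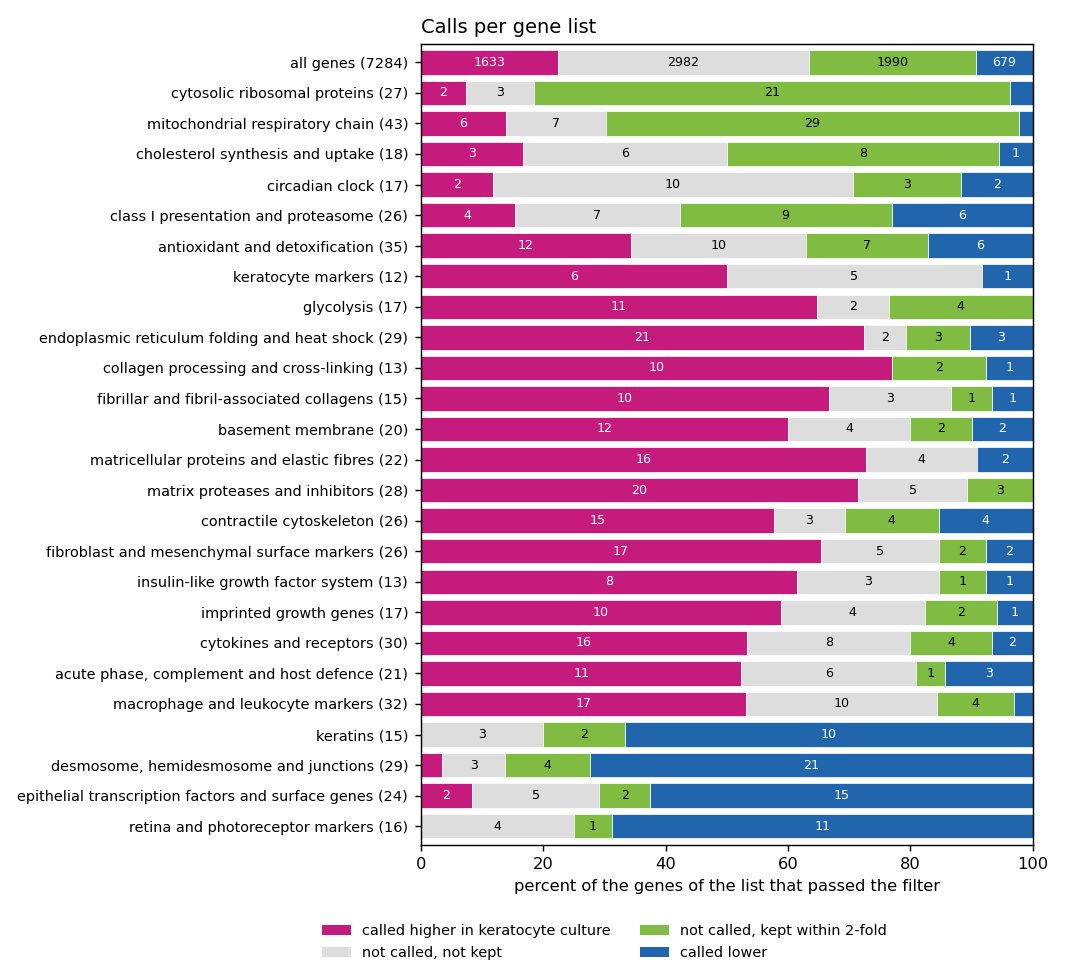
Share of the genes of each list that rose (pink), fell (blue), were kept and not called (green) or were neither (grey), for 25 lists and all 7284 genes. Ribosomal and respiratory chain genes are mostly green, epithelial junction genes mostly blue, and matrix and endoplasmic reticulum genes mostly pink.

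The genes by which keratocytes are known did not move together. Of 12 keratocyte markers that passed the filter, 6 rose, 1 fell and 1 was kept, with a median log2 difference of 0.73, or 0.37 with signals under the limit raised to it. Decorin (Dcn), which binds collagen fibrils, was kept within 2-fold and also rose, from 3552, 3173 and 3748 to 5419, 4806 and 5630.1 (0.60 ± 0.11, limma adjusted p = 0.0011). Keratocan (Kera), the corneal keratan sulphate proteoglycan, read 429, 265 and 214 in adult stroma and 315, 15.7 and 164 in culture, so that the groups overlapped and the difference of -1.31 ± 0.71 did not pass the test (adjusted p = 0.18). Without keratocyte replicate 2 it was -0.33 (limma adjusted p = 0.7). Lumican (Lum), its relative, read 1557, 1160.1 and 817 in adult stroma and 3254, 1122 and 2553 in culture, again with overlap (difference 0.88 ± 0.35, adjusted p = 0.067). Without keratocyte replicate 2 the difference of Lum passed the test, at 1.33 (limma adjusted p = 0.0034), and it passed without adult replicate 1 too, at 1.10 (adjusted p = 0.049). Matrix Gla protein (Mgp), an inhibitor of calcification, rose from 220.1, 368 and 218 to 2305, 2736 and 2818 without overlap (3.25 ± 0.29, adjusted p = 1e-06). Slc4a4, the sodium bicarbonate cotransporter, was below the limit on all adult arrays (17.4, 15.9 and 21.3) and read 265, 90.4 and 193 in culture.

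Of 10 crystallin enzymes that passed the filter, 2 rose, 2 fell and 2 were kept, against 22.4% higher, 9.32% lower and 29.4% kept over all genes, with a median of 0.19 that turned negative after quantile normalization or centring. Transketolase (Tkt), of the pentose phosphate pathway, fell from 4838, 4972 and 5209 to 1531, 635 and 1021 (-2.31 ± 0.24, limma adjusted p = 3.9e-06). The corneal aldehyde dehydrogenase Aldh3a1 read 6154, 6745 and 7415 in adult stroma and 3778, 125 and 2327 in culture, and its difference of -2.65 ± 1.06 did not pass (limma adjusted p = 0.072), although no keratocyte array reached the adult range. Without keratocyte replicate 1 it passed, at -3.56 (adjusted p = 0.03). Aldh1a3, which makes retinoic acid, fell from 223 ± 31.9 to 13.6 ± 9.56. The mitochondrial Aldh2 was kept at 368 ± 119 and 415 ± 151, as was Idh1 (337 ± 87.4 and 302 ± 92.5). Tkt and Aldh3a1 are also abundant in corneal epithelium, whose markers fell over the same arrays, and its part in these values was not tested.

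**Figure D4:**
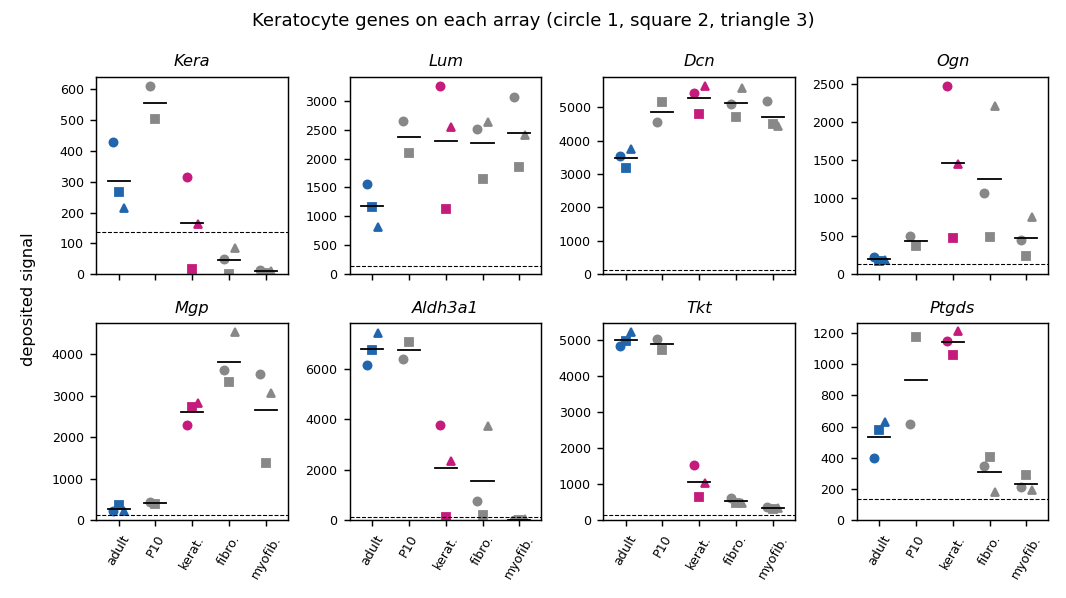
MAS5 signal (linear axis) of 8 keratocyte genes on each array of the 5 groups. Circles, squares and triangles are replicates 1, 2 and 3, bars are group means and the dashed line is the background limit. In keratocyte culture the square of replicate 2 is the lowest for Kera, Lum, Ogn and Aldh3a1.

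Within the keratocyte cultures a small set of genes varied much more than the rest. The median SD of log2(signal + 16) was 0.174 over all genes in keratocyte culture and 0.289 in adult stroma, and 20 genes had an SD above 1 in culture against 71 in adult stroma. Replicate 2 was the lowest array for 19 of the 20 and replicate 1 the highest for 18. The 10 most variable genes with a mean culture signal of 500 or more were Aldh3a1, Ogn, Apod, Nupr1, A2m, Lum, Col6a3, Pnrc1, Ctsh and C1ra, and replicate 2 was lowest and replicate 1 highest in all 10. Osteoglycin (Ogn), another small leucine-rich proteoglycan, read 2478, 474 and 1447, all above the adult 220.0, 174 and 186. Apolipoprotein D (Apod), a carrier of lipids, read 5054, 1198 and 3830.0, and the protease inhibitor A2m read 3835, 1278 and 2723. Apod rose over adult stroma (1.77 ± 0.60, limma adjusted p = 0.037), but the call was lost in 7 of 21 alternative settings. These genes were picked for their spread, so the order of the replicates is a description. The trimmed mean signal had the same order, at 224.0, 186.2 and 215.2 on keratocyte replicates 1, 2 and 3. In fibroblast culture Aldh3a1 (1565 ± 1886) and Ogn (1256 ± 881) also varied widely, and Lum (2262 ± 540) varied less.

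The genes that fell included most of the epithelial adhesion genes. Of 29 genes of desmosomes, hemidesmosomes and junctions 21 fell, 12 of them switched off, 1 rose and 4 were kept, with a median of -2.59, or -1.30 with signals under the limit raised to it. Keratins gave 10 of 15 lower and none higher, and epithelial transcription factors and surface genes 15 of 24 lower and 2 higher. The 15 largest falls among non-overlapping genes with a mean of 500 or more in adult stroma, whose order depends on the added constant where culture signals lie in background, were Col17a1, Psca, Plet1, 2610528A11Rik, Sfn, Itgb4, Krt14, Cldn7, Ces2g, Dsp, Mal, Cryba1, Pglyrp1, Krt6b and Cryge. Sfn, the epithelial 14-3-3 protein, read 2102, 2641 and 1520.5 in adult stroma and 7.34, 5.06 and 9.23 in culture, at least 15.2-fold lower, and Elf3, an epithelial transcription factor, was at least 10.8-fold lower. Anxa8, an annexin found in epithelia, fell from 2219, 2759 and 1973 to 51.1, 67.2 and 45.3. The syndecan Sdc1, an epithelial heparan sulphate proteoglycan, fell from 1083, 1435 and 818 to 37.8, 19.1 and 33.5, at least 8.07-fold. No array overlapped between the groups for these 4 genes. Of 10 lens crystallins 5 fell and 1 rose, and of 16 retinal genes 11 fell. These falls stand beside the drop in the epithelial marker sum from 16428 or more to 657 or less. Krt6a and Krt6b, and the gamma crystallins, are near-identical copies and uncertain singly.

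Some of the genes that fell have roles outside epithelial junctions. Wnt4, a secreted Wnt ligand, fell from 447, 874 and 429 to 8.82, 1 and 9.60, at least 4.23-fold, and the secreted Wnt antagonist Sfrp1 fell from 433, 672 and 354 to 96.9, 80.5 and 93.4, at least 3.53-fold. Of 24 Wnt pathway genes 4 fell, 6 rose and 5 were kept, a share of rises near the 22.4% of all genes. After quantile normalization 5 rose and 6 fell, and after centring 4 rose and 6 fell. The zinc finger factor Klf4, which restrains division in epithelium, fell from 2300.0, 2270.0 and 1927 to 324, 195 and 267 (limma adjusted p = 1.2e-05), a ratio of means of 8.27, and stayed above the limit. Kit, the stem cell factor receptor of mast and pigment cells, fell from 444 ± 87.1 to 119 ± 23.2. Mal, a membrane raft protein of epithelia and myelin, fell from 2176, 2533 and 2287 to 29.4, 30.8 and 27.3, and the neuropeptide Npy from 798, 944 and 533 to 58.5, 53.4 and 55.0.

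Of 35 antioxidant and detoxification genes 12 rose, 6 fell and 8 were kept, against 22.4%, 9.32% and 29.4% of all genes. Gsto1, an omega-class glutathione transferase, fell from 6026, 5775 and 6541 to 431, 337 and 409.8 (-3.91 ± 0.27, limma adjusted p = 7.2e-08), and the carbonyl reductase Cbr2 fell from 990.4, 1738 and 1258 to 70.8, 74.2 and 88.1, at least 9.65-fold. Gsta2 fell too, from 389.9 ± 39.1 to 67.4 ± 4.69, although the alpha-class transferases are near-identical and uncertain singly. Opposite to these, Txnrd1, the cytosolic thioredoxin reductase, rose from 23.7, 13.7 and 1 to 787, 623 and 506, at least 4.64-fold. Cyp1b1, an oxidase of retinoids and steroids, was listed at the floor on every adult array and read 586, 398 and 632 in culture, at least 3.91-fold higher. Sod3, the extracellular superoxide dismutase, rose from 157, 233 and 131 to 997, 1027 and 1151 (2.54 ± 0.25), Mgst1 from 86.1 ± 25.3 to 568 ± 176 and the peroxiredoxin Prdx4 from 96.2 ± 16.2 to 549 ± 147. Sod1 and Cat were kept, at differences of -0.14 ± 0.20 and 0.07 ± 0.16. The epithelial marker sum fell over the same arrays, and its part in these falls was not tested.

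The clock list as a whole lay near the shares of all genes. Of 17 clock genes 2 fell, 2 rose and 4 were kept, against 9.32% lower, 22.4% higher and 29.4% kept, and after quantile normalization 4 fell and 1 rose. Dbp, a transcription factor of the daily cycle, read 371, 705 and 400.2 in adult stroma and 79.4, 3.83 and 24.4 in culture, at least 3.57-fold lower, and Nr1d1 fell from 524, 558 and 368 to 193, 225 and 211 (-1.12 ± 0.18, limma adjusted p = 0.00029). Clock was among the kept genes, at -0.20 ± 0.19. The hour at which tissue or cells were collected is not in the labels used here. The interferon-inducible proteasome subunits Psmb8 and Psmb9 fell as well, Psmb9 from 178, 165 and 133 to 39.8, 33.3 and 42.5. The regulator Psme1 fell from 638 ± 120.4 to 263 ± 67.8, and the peptide transporter Tap1 from 162 ± 5.86 to 92.1 ± 1.18. Beta-2 microglobulin (B2m), a subunit of class I molecules, rose from 737, 643 and 301 to 2640.2, 2159 and 2567 (2.19 ± 0.30).

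The chaperones Hspa1a and Hspa1b fell while most other genes of protein folding rose. Of 29 genes of endoplasmic reticulum folding and heat shock 21 rose, 3 fell and 3 were kept, with a median of 0.91 against 0.14 for all genes. Hspa1b, an inducible cytosolic chaperone, read 3202, 3138 and 3204 in adult stroma and 228, 151 and 190.0 in culture (-3.98 ± 0.28, limma adjusted p = 1e-07), and Hspa1a read 1646, 1494 and 1011 in adult stroma and 38.4, 22.9 and 39.3 in culture, at least 10.0-fold lower. The genes encode nearly the same protein and their probe sets may share signal. Their promoters, from 250 bases before to 50 after the start, are shown because both carry a heat shock element, GAANNTTC or TTCNNGAA, 104 bases before the start (in capitals), from RefSeq with build GRCm38.p6. Both strands were searched, and the letters occurred in 17.0% of 27025 promoters of this length and in 14.4% of 5823 promoters of tested genes. The promoters are equal at 296 of 300 bases.
Hspa1a promoter, chr17:34972107-34972406, minus strand: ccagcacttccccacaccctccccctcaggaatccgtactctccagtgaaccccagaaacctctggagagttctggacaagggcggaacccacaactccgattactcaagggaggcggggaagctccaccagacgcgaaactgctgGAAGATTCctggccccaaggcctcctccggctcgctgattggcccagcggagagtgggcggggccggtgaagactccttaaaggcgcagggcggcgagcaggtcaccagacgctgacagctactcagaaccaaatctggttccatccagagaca
Hspa1b promoter, chr17:34959189-34959488, minus strand: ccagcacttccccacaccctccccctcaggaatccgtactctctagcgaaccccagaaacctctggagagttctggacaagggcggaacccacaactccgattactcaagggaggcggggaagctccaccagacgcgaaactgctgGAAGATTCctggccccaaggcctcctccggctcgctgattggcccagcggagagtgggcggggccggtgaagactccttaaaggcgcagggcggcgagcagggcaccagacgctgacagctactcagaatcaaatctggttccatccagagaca
A match describes letters and not a bound site. In contrast, Hspa5, the main chaperone of the endoplasmic reticulum, rose from 800.5, 868 and 620.4 to 2211, 1546 and 2097 (1.33 ± 0.24, limma adjusted p = 0.00058). The disulphide isomerase Pdia6 rose from 68.5, 163 and 122 to 860.1, 658 and 778, and Serpinh1, the collagen chaperone, from 541, 659.5 and 298 to 2952, 2885 and 3356. The cytosolic co-chaperone Hsph1 rose from 145 ± 3.60 to 619.9 ± 87.0. None of these arrays overlapped between the groups.

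Genes that rose in culture included mesenchymal regulators and receptors. Markers of neighbouring tissues fell over the same arrays, and their part in the rises was not tested. The 15 largest rises among non-overlapping genes with a mean of 500 or more in culture, ordered with the same dependence on the constant, were Chil1, Saa3, Timp2, Serpina3n, Ccn2, Cxcl5, Lyz2, Lox, Ccl2, Adm, Acta2, Aebp1, Timp1, Tagln and Cyp1b1. Of 26 fibroblast and mesenchymal surface markers 17 rose, 10 of them switched on, 2 fell and 2 were kept, with a median of 1.42, or 1.04 with signals under the limit raised to it. Pdgfrb, the PDGF receptor beta of fibroblasts and pericytes, read 3.79, 1 and 13.9 in adult stroma and 323, 304 and 321 in culture, at least 2.30-fold higher. The mesenchymal homeobox genes Prrx1 and Prrx2 were switched on, Prrx2 reading 375, 399 and 395 against 25.0, 1 and 59.2. Twist1 rose from 90.9, 44.0 and 57.1 to 456, 264 and 346, while its relative Twist2 was kept. Pdgfra had 3 probe sets of which 1 rose, the one of highest mean, at 129, 52.9 and 85.7 in adult stroma and 1528, 783 and 1232 in culture, and the median over the 3 gave -0.27 (limma adjusted p = 0.31). The adhesion molecule Vcam1, which binds leukocytes, rose from 118, 51.7 and 52.3 to 1308, 622 and 971, at least 7.02-fold. Cd63, a tetraspanin of lysosomes and exosomes, rose from 266 ± 55.2 to 2716 ± 232, and S100a4, a marker of fibroblasts, from 249.7 ± 42.5 to 2299 ± 106. The surface proteins Ly6e and Cd9 fell, from 2285 ± 332 to 700.4 ± 135 and from 1413 ± 215 to 581 ± 192.

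Of 35 growth factor ligands and receptors 17 rose, 2 fell and 6 were kept, against 22.4% of all genes higher. Vegfc, a lymphatic growth factor, was listed at the floor on every adult array and read 478, 257 and 392 in culture, at least 2.73-fold higher, and Nrp1, a co-receptor of the VEGF family, rose from 104, 144 and 105 to 1183, 965 and 1134. Wnt5a, a ligand of the non-canonical Wnt pathway, was switched on, from 1, 12.8 and 11.1 to 422, 221 and 356, at least 2.42-fold, in the same arrays in which Wnt4 fell. The receptor Fzd2 rose from 189.6 ± 17.4 to 509 ± 64.2. Among TGF-beta and BMP genes 17 of 37 rose, 2 fell and 5 were kept. Smad7, the inhibitory Smad induced by TGF-beta, rose from 69.6, 40.6 and 32.2 to 407, 302 and 433, at least 2.76-fold, whereas Smad4 and Id1 were kept (0.21 ± 0.19 and -0.02 ± 0.19).

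Binding proteins of the insulin-like growth factors rose. Of 13 genes of the system 8 rose, 1 fell and Igf1 was kept (0.21 ± 0.17). Igfbp4, a binding protein that holds back the growth factors, rose from 129, 133 and 137 to 1295, 1215 and 1176, and Igfbp3 from 10.9, 18.7 and 30.9 to 372, 380.0 and 387, at least 2.76-fold. Igfbp2 rose from 1514 ± 268 to 5313 ± 195 (1.82 ± 0.14), and Htra1, a protease that cuts binding proteins and matrix, from 362 ± 47.5 to 2668 ± 316. Igf2, a fetal growth factor expressed from the paternal allele, rose from 172, 298 and 221 to 1091, 426 and 788 (1.60 ± 0.32, limma adjusted p = 0.0014). In 17 imprinted genes 10 rose, 5 of them switched on, 1 fell and 2 were kept, Dlk1 among the latter. The dystroglycan-complex gene Sgce rose from 27.8, 31.5 and 23.6 to 542, 255 and 383, the noncoding RNA Meg3 from 117, 68.4 and 116 to 1025, 369 and 658 and the zinc finger gene Plagl1 from 24.4, 18.1 and 54.9 to 253, 234 and 260.3. None of these 3 overlapped between the groups.

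**Figure D5:**
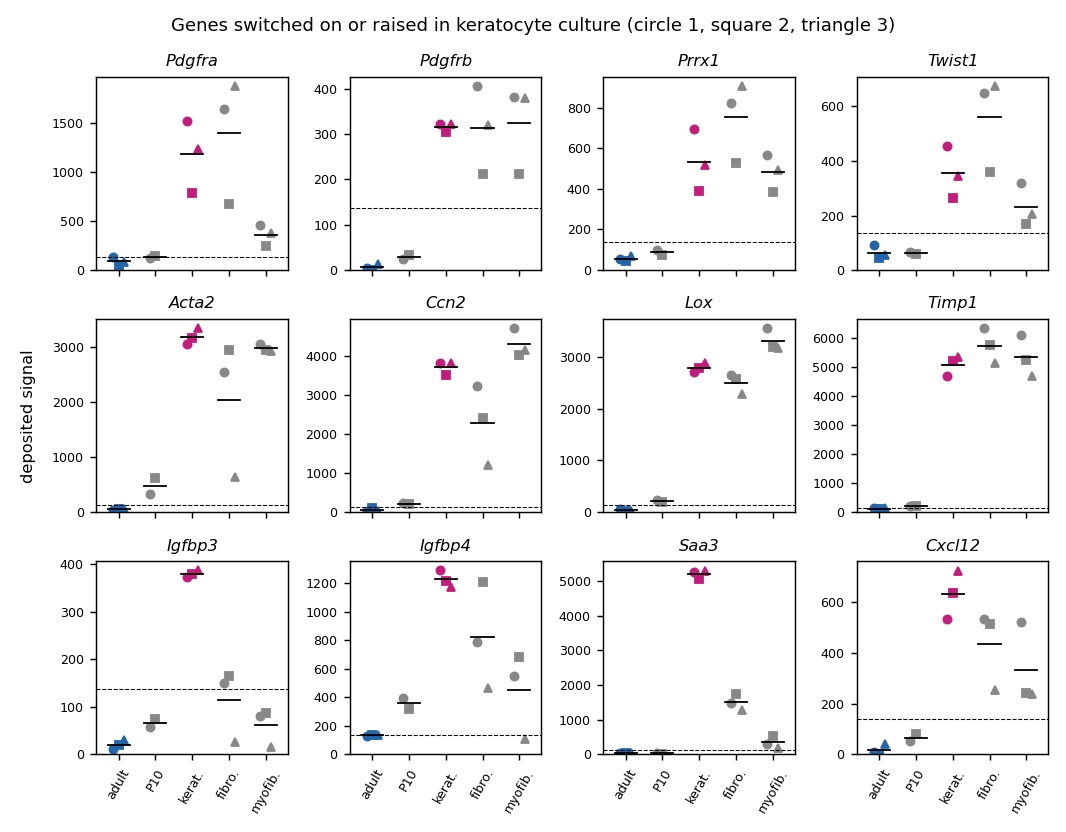
MAS5 signal (linear axis) of 12 genes of mesenchymal, contractile, matrix and secreted proteins on each array of the 5 groups. Circles, squares and triangles are replicates 1, 2 and 3, bars are group means and the dashed line is the background limit of 137.7. For Pdgfrb, Igfbp3 and Lox all adult arrays lie below the limit and all keratocyte arrays above it.

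Enzymes that process collagen rose in culture. Of 13 genes of collagen processing and cross-linking 10 rose, 5 of them switched on, 1 fell and 2 were kept, with a median of 1.68, or 1.06 with signals raised to the limit. P4ha1, the proline hydroxylase that stabilises the collagen helix, rose from 58.8, 72.3 and 38.8 to 688, 511 and 626, at least 4.42-fold, and Plod3, a lysine hydroxylase, from 72.8, 82.0 and 107 to 681, 477 and 629, at least 4.32-fold. Among 15 fibrillar and associated collagens 10 rose, 1 fell and 2 were kept. Col8a1, a collagen that in the cornea marks the endothelial basement membrane, rose from 84.7, 101 and 73.2 to 2044, 1612 and 1959, at least 13.6-fold. Col5a2, which limits fibril width, rose from 499 ± 151 to 2799 ± 187 (2.49 ± 0.21), and Col6a2 was kept (0.15 ± 0.26).

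Basement membrane genes moved in both directions. The type IV chains Col4a1 and Col4a2 rose, Col4a1 from 279, 263 and 296 to 2311, 2132 and 2365, and the epithelial laminin chain Lamb3 fell from 239 ± 43.6 to 25.9 ± 2.82. Over 20 basement membrane genes 12 rose, 2 fell and 2 were kept. Matricellular and elastic fibre genes had 16 of 22 higher, 12 switched on and 2 lower, with a median of 2.17, or 1.31 with signals raised to the limit. Mfap5, a protein of elastic microfibrils, rose from 44.9, 34.9 and 52.5 to 562, 438 and 549.9, at least 3.75-fold, and Fbln2 from 114 ± 19.7 to 1157 ± 224. Of 28 matrix proteases and inhibitors 20 rose, none fell and 4 were kept, among them Ctsl (0.15 ± 0.16). Mmp12, the macrophage elastase, rose from 104, 62.7 and 128 to 1889.8, 1112 and 1719, beside the rise in the macrophage marker sum. Aebp1, a collagen-binding protein, rose from 31.1, 63.8 and 1 to 1518, 1309 and 1531.

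Of 14 genes of glycosaminoglycan synthesis 5 rose, 2 fell and 3 were kept, against 22.4%, 9.32% and 29.4% of all genes, and 4 rose and 2 fell after quantile normalization. Ugdh, which makes the glucuronic acid donor, rose from 424, 444 and 336 to 947, 698 and 850.1 (1.02 ± 0.24), and Ext1, a heparan sulphate polymerase, rose from 94.3 ± 8.60 to 373 ± 15.3. The sulphate donor synthases parted, Papss1 falling from 485 ± 129.7 to 281 ± 29.3 and Papss2 kept at 253 ± 72.2 and 223 ± 35.3. Versican (Vcan), a large hyaluronan-binding proteoglycan, read 1, the floor of the deposited signals, throughout adult stroma and had a mean signal of 126 ± 20.4 in culture, below the limit, so no size is read from its rise. Over the 8 small leucine-rich proteoglycans 4 rose and none fell.

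Contractile and adhesion genes rose in part. Of 26 contractile cytoskeleton genes 15 rose, 6 of them switched on, 4 fell and 5 were kept, and of 26 focal adhesion and actin regulators 10 rose, 4 fell and 7 were kept. Caveolin 1 (Cav1) rose from 154, 207 and 140.3 to 1307, 1594 and 1690.2, and the actin-severing Cfl1 from 437, 489 and 414 to 1844, 2793 and 2150.2. The actin-capping Capg and the crosslinker Actn4 fell, Actn4 from 2064 ± 427 to 812 ± 171 (-1.33 ± 0.19) and Capg from 1807 ± 253 to 444 ± 73.6 (-1.99 ± 0.18). Myh9 and Rhoa were kept, at 0.18 ± 0.20 and -0.02 ± 0.21. Promoters of 6 switched-on contractile or adhesion genes were in the RefSeq table (build GRCm38.p6), and 2 of them held a CArG box, CC and GG around 6 bases that are A or T, which is bound by serum response factor. Both strands were searched, and the box occurred in 1.81% of 27025 promoters and in 1.89% of 5823 promoters of tested genes. The 2 promoters are shown with the box in capitals, 161 bases before the start in Myl9 and 73 in Acta1.
Myl9 promoter, chr2:156775214-156775513, plus strand: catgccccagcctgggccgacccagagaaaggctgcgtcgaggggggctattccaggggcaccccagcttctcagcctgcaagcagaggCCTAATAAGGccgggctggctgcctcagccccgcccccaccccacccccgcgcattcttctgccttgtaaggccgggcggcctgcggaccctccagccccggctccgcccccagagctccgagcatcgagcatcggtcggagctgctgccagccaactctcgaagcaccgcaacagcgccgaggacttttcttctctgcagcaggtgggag
Acta1 promoter, chr8:123894726-123895025, minus strand: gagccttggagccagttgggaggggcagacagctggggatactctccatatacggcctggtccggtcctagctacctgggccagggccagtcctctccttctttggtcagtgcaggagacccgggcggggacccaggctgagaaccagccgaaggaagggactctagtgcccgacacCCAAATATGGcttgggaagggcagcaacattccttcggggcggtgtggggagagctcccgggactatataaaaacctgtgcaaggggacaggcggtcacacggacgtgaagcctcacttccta
No exact match was in the windows of Acta2, Actn1, Csrp1 and Pdlim7. The search allowed no other base, and the Acta2 window holds ccctatatgg and ccttgtttgg, each 1 base away from a box. Near matches were not counted in the other promoters, so a missing match does not show that a site is absent. Outside this set the box was looked for singly in Saa3, Chil1, Timp2, Dbp, Krt12 and Col17a1. The promoter of Krt12, which fell from 7148 ± 507 to 238 ± 13.2, held it 31 bases before the start. That match, cctataaagg, includes the TATA box letters tataaa, and a match describes letters and not a bound site. Myl9, the regulatory light chain of smooth muscle myosin, read 90.7, 93.8 and 107 in adult stroma and 1096, 882 and 1059 in culture. Acta1, skeletal muscle actin, read 25.5, 67.9 and 62.8 in adult stroma and 219, 153 and 209 in culture, and its call was lost in 11 of 21 alternative settings.

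Most glycolytic genes rose. Of 17 genes 11 rose, none fell and 4 were kept, against 22.4% of all genes higher, with a median of 1.29, or 0.63 with signals raised to the limit. Pgk1, which makes ATP in the pathway, rose from 551, 606 and 488 to 2109.9, 2178 and 1977 (1.90 ± 0.21, limma adjusted p = 6.6e-06), and Pkm, the pyruvate kinase, from 733, 1528 and 804 to 3120.2, 3519.6 and 3436 (1.78 ± 0.21). Tpi1 rose from 710.4 ± 206 to 2275 ± 218, Pgam1 from 372 ± 84.2 to 1318 ± 41.9 and Ldha, which makes lactate, from 1829.7 ± 223 to 3377 ± 419.7. Hk1, the first enzyme, was kept at 2324 ± 249 and 2246 ± 606. Of 36 cell cycle genes 10 rose, 1 fell and 6 were kept, a share of rises near the 22.4% of all genes. With only these groups in the fit 20 rose, and with the replicate number as a block 17 rose. Cdk1 was among the genes that rose, from 177 ± 20.6 to 380.2 ± 31.0. Cell cycle inhibitors had 10 of 24 higher and 4 lower.

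Lipid and inflammatory genes rose too. Plin2, the coat of lipid droplets, rose from 134, 196 and 147 to 1428, 1703 and 1579.9 (3.19 ± 0.21), and Angptl4, an inhibitor of lipoprotein lipase, from 189, 240.2 and 172 to 1153, 913 and 1204. Ptgs2, the inducible prostaglandin synthase, was switched on, at 512, 348 and 397 against 4.63, 1 and 1. Of 23 lipid transport and prostaglandin genes 11 rose, 2 fell and 4 were kept. Of 18 cholesterol genes 3 rose, 1 fell and 8 were kept, and the desaturase Scd2 fell from 3001, 3193 and 2938 to 1461, 1139 and 1449.7. Among 30 cytokines and receptors 16 rose, 2 fell and 5 were kept. The shared receptor Il6st, through which IL-6 family cytokines signal, rose from 84.7, 101 and 81.4 to 1234, 941 and 964, at least 7.60-fold, while Stat3 was kept (0.34 ± 0.18). The chemokine Cxcl12 rose from 8.45, 1 and 39.0 to 534, 636 and 726, at least 4.59-fold, and Lcn2, an iron-binding defence protein, from 38.0, 83.0 and 57.3 to 894, 753 and 1067. The hormone Adm, a vessel dilator, rose from 1, 1.80 and 1 to 700.4, 814 and 811, and Chil1, a chitinase-like protein, from 1, 7.07 and 1 to 2549, 1575 and 2527.

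Some markers of other cell types rose and others did not. Of 32 macrophage and leukocyte markers 17 rose, 10 of them switched on, and 1 fell, against 22.4% of all genes higher. Of 10 lymphocyte markers that passed the filter none rose and 1 fell, and 8 of the 18 listed were off the array or below the filter. The 3 lymphocyte markers Cd3e, Cd3g and Cd79a lay below the limit on every keratocyte array, so the lack of rises says little about lymphocytes. Cd68 rose from 107, 91.5 and 121 to 393, 351 and 423, and Csf1r was kept (-0.14 ± 0.17). Pigment cell genes had 5 of 9 members higher, with a summed signal over 4 markers of 612 to 750 in adult stroma and 1862 to 2221 in culture. Tyrp1 and Dct, enzymes of melanin synthesis, rose, Tyrp1 from 1, 37.9 and 23.3 to 437, 303 and 462 and Dct from 444, 510.2 and 485 to 1238, 1094 and 1267. Over 3 vascular markers the summed signal was 115 to 242 in adult stroma and 398 to 549 in culture, and 2 of the 3 lay below the limit on every keratocyte array. Cdh5 carried that rise, with Pecam1 at 139 ± 69.0 in adult stroma and 119.8 ± 15.3 in culture and Tek at 20.2 ± 9.32 and 30.4 ± 3.23. Among 12 vascular and corneal endothelium markers 7 rose, Cdh5, the cadherin of vessels, from 1, 10.4 and 1 to 386, 262 and 304 and Emcn from 22.9, 30.8 and 38.4 to 214, 252 and 240.2. Of 11 nerve and Schwann cell markers 4 rose, 3 fell and 1 was kept, with a median of 0.06 that turned negative after quantile normalization or centring. Mbp, a myelin protein, fell from 273 ± 26.0 to 83.7 ± 1.77, as did Mal and Npy, and the adhesion molecule Ncam1 rose from 92.5 ± 17.5 to 557 ± 67.8. The part of such cells in the culture was not tested.

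The remaining groups were set beside these levels with no test, since they share the adult arrays or the fit. Of the 399 genes switched on, every P10 array exceeded the limit for 105 and lay below it for 240, every fibroblast array exceeded it for 244 and every myofibroblast array for 229. For the 186 genes switched off, every P10 array exceeded the limit for 143, every fibroblast array for none and every myofibroblast array for 3. Pdgfrb read 29.2 in P10 stroma, 313 in fibroblasts and 325 in myofibroblasts on average. Dbp read 112 in P10 stroma, 105 in fibroblasts and 20.6 in myofibroblasts on average. Wnt4 read 469 in P10 stroma, 20.5 in fibroblasts and 1.00 in myofibroblasts on average, and Wnt5a read 78.7 in P10 stroma, 286 in fibroblasts and 326 in myofibroblasts on average. Hspa1b read 3036 in P10 stroma, 131 in fibroblasts and 83.2 in myofibroblasts on average. Igf2 read 1495 in P10 stroma, 521 in fibroblasts and 128 in myofibroblasts on average. The P10 arrays of Igf2 and Hspa1b thus had higher means than either fibroblast or myofibroblast arrays.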

How the data were processed

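RNA of 14 samples was hybridised to 1 Affymetrix MG_U74Av2 array each. The deposited intensity values are MAS5 signals, which the authors scaled to a target of 150 per the labels' protocols. The trimmed mean was 179.9 to 185.9 on adult and 186.2 to 224.0 on keratocyte arrays, so the scaling in use is not fully settled. Array number limits the precision.

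Signals were used as deposited, on log2(signal + 16), and fitted with limma 3.58.1 (R 4.3.3) over the 14 arrays, with a variance trend and 9 residual degrees of freedom. Tables and figures were made with Python 3.11.15, pandas 2.3.3, numpy 2.4.6 and matplotlib 3.10.9. Probe sets were named from the platform annotation: 10833 of 12422 had 1 symbol, 396 several and 1193 none, and the last 2 kinds were tested and not named. On simulated data of 9327 probe sets for this comparison, the fit recovered 63% of changes of 1 and 93% of changes of 2 on the log2 scale. Of its 167 calls 11 were false. The simulation changed 200 probe sets, where 2235 rose and 952 fell in the data. It gave each probe set 1 spread for all groups, whereas adult arrays spread more than keratocyte arrays, so these rates need not hold for the data. Members and gene lists were chosen with earlier results of these data known. The text names the 15 largest rises and falls with a mean of 500 or more, the 15 kept genes of highest adult signal, the 10 most variable culture genes, a set of corneal genes and members of the lists, led by the called ones of largest difference. The heat shock element was searched after its genes' values were seen. There were 21 alternative settings, on the added constant, filter, scaling, fit, threshold, choice of probe set and arrays left out.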

Additional observations from a re-analysis of the deposited data

How the results depend on the processing

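The 2235 rises and 952 falls of probe sets moved by more than 1.5 times in these settings. Array quality weights gave 4114 rises and 2145 falls, and an adjusted p below 0.01 gave 1474 and 614. Quantile normalization gave 1637 falls and centring on the median 1598. Leaving out 1 array at a time gave 1614 to 2266 rises, 740 to 1210 falls, 368 to 513 genes switched on, 180 to 217 switched off and 1998 to 2145 kept. With the replicate number as a block, 2670 probe sets rose and 1099 fell. Deviations of same-numbered keratocyte and adult arrays correlated at 0.310, -0.163 and -0.0391 for replicates 1, 2 and 3. The fibroblast and myofibroblast arrays were not part of that check. Replicate 2 had the lowest trimmed mean signal in keratocyte, fibroblast and myofibroblast culture alike. Whether same-numbered cultures shared a batch was not tested, and the main fit treated all arrays as independent. Of the 2312 called genes, 1203 had the same call in all 21 settings. Using each gene's median probe set value reversed C1qb (0.85), Itga3 (-0.53), Pdgfra (-0.27) and Rpl7 (0.85), and the cause was not tested. With the Gapdh ratio as covariate, 1628 called genes had the same call. Signals below the limit of 137.7 cannot be told from background, and lists whose median changed sign under quantile normalization or centring included crystallin enzymes, proteoglycans and hyaluronan, the proteasome, clock genes and annexins.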
